A study of Rattus norvegicus with 8 samples.

Results

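Matrix Gla protein (Mgp), Srpx2 and 7 other genes for secreted proteins of the extracellular matrix were followed in N27 cells, an immortalised line from rat mesencephalon, after exposure to a neurotoxin. Members were the genes Mgp, Srpx2, Ctgf (now Ccn2), Cyr61 (now Ccn1), Thbs1, Timp1, Spp1, Sparc and Bgn, found by gene name in the array files: 9 genes with 10 probes, of 26183 genes with 30328 probes in all. The set was put together with measured values in view, above all the levels of Mgp and Srpx2 on the Mn arrays. For that reason the comparison of Mn with control is given as a description for all 9 genes. No p is given for Mgp or Srpx2 in any comparison that involves Mn. The p values of the other genes for Mn against another toxin reuse the Mn arrays that were in view. They describe a difference beside its spread, and a call there says only that the threshold was met. No p of the 9 genes was corrected for this choice.

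RNA of these cells was hybridised to 8 single-colour arrays, 2 for each of 4 groups, and all groups were N27 cells kept in RPMI medium. Mn cells had received 150 µM manganese for 48 h, and MPP+ cells 250 µM MPP+, an inhibitor of complex I of the respiratory chain, also for 48 h. The third toxin, labelled 3-NPA, was read as 3-nitropropionic acid, which blocks succinate dehydrogenase, and no dose, time or vehicle is given for it in the labels. Control cells are labelled as control only, and all groups come from 1 cell line. The labels do not say whether the 2 arrays of a group came from separate cultures, so the spread behind each p is that between 2 arrays, which may be technical, and the number of arrays limits the precision.

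Matricellular proteins are secreted into the matrix, where they bind structural proteins, growth factors and cell surface receptors and so tune adhesion and signalling without forming the scaffold themselves. Mgp is a vitamin K-dependent protein that holds back calcification of soft tissue and binds bone morphogenetic proteins, and Srpx2 is a sushi-repeat protein known as a ligand of the urokinase receptor and for a role in synapse formation. Ctgf and Cyr61, of the CCN family, are textbook targets of the coactivator YAP with its DNA-binding partners of the TEAD family.

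The promoters of Srpx2, Ctgf and Cyr61 are shown because these genes were higher on the Mn arrays and hold the TEAD motif, GGAATG, or its complement CATTCC, in capitals below. Each runs 5′ to 3′ on the strand of the gene, from 250 bases before the annotated start through the first 50 bases of the gene, taken from RefSeq on the GRCr8 assembly.
Srpx2, chrX:101399873-101400172, plus strand: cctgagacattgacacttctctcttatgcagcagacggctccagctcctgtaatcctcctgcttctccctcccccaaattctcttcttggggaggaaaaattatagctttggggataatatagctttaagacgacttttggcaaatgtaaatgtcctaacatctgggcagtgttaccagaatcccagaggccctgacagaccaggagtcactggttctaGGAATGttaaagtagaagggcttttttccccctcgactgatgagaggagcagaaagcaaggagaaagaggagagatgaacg
Ctgf, chr1:22624565-22624864, minus strand: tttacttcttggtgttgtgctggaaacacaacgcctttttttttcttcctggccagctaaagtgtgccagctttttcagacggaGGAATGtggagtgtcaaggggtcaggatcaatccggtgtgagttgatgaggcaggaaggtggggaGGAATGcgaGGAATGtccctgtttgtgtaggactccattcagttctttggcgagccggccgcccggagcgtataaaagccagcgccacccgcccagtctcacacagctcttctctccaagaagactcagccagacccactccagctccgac
Cyr61, chr2:237225640-237225939, minus strand: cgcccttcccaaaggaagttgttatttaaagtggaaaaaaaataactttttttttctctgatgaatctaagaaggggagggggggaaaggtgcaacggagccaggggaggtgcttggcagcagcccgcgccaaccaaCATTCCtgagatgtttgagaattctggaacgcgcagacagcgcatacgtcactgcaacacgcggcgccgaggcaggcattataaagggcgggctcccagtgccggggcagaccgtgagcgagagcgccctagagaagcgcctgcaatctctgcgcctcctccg
RefSeq promoters were matched for 7 of the 9 genes, and Mgp and Bgn had no entry in the table used. Of those 7 promoters, 6 held at least 1 match on either strand, and Spp1 held 0. Ctgf had 3 matches, whose first bases lay at -166, -101 and -92 with the annotated start counted as 0. Single matches began at -31 in Srpx2, -113 in Cyr61, -47 in Thbs1, -225 in Timp1 and -33 in Sparc. At least 1 match stood in 4749 of 33469 rat promoters of the same length (14.2%), and at least 3 in 32 (0.0956%). The AP-1 motif TGANTCA was found in 0 of the 7 promoters and in 7.33% of all, and the CArG box, bound by SRF, in 0 of the 7 and in 1.64% of all, each searched on both strands. None of the searched motifs overlapped another in these windows, and a match or its absence says only which letters are there.

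**Figure D1:**
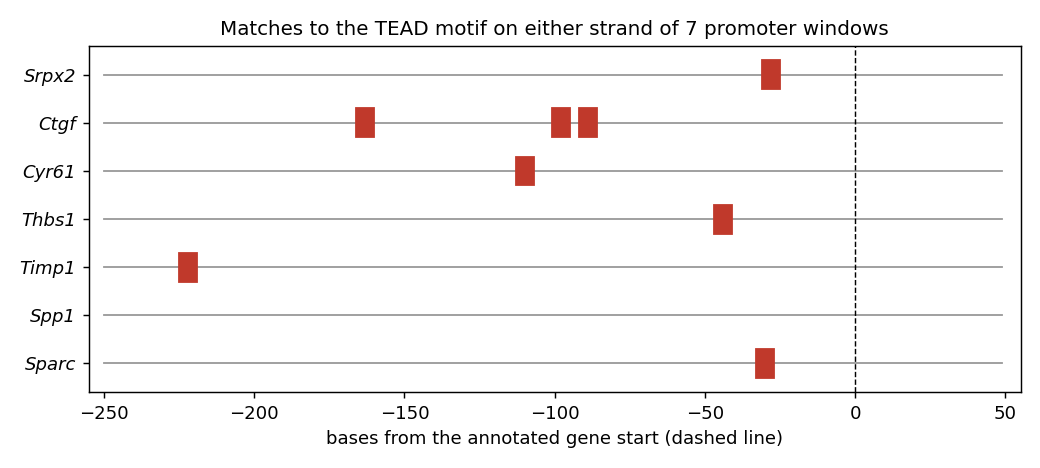
Position of each match to the TEAD motif (red blocks, either strand) in 7 promoter windows, in bases from the annotated gene start (dashed line). Ctgf holds 3 matches, Spp1 holds 0 and the other 5 genes hold 1 each.

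Levels are scaled intensities: the processed signal of a probe divided by the 75th percentile of its array and multiplied by 1000. The level of one probe is not compared with that of another. Spots that the scanner output marks as well above background numbered 37964 and 38033 with Mn, 41013 and 39832 with MPP+, 40345 and 41354 with 3-NPA, against 34060 and 32711 in control. The lowest scaled intensity that was well above background ran from 8.71 to 15.3 on the 6 toxin arrays, against 36.3 and 46.7 on the control arrays, which touches the dim genes below. The 9066 probes that were well above background on no array had a median of 3.41 and 3.54 in Mn, 2.08 and 2.32 in MPP+ and 2.35 and 2.98 in 3-NPA, against 8.42 and 10.4 in control. The 8 arrays shared 1 slide and 1 scan. Images of the 3-NPA arrays were read in the later of 2 feature extraction runs, so that run and 3-NPA cannot be told apart. Control and Mn arrays shared the upper slide row and MPP+ and 3-NPA arrays the lower one, so row and toxin cannot be told apart where MPP+ or 3-NPA is compared with control or with Mn. Control and MPP+ arrays lay in slide columns 1 and 2, and Mn and 3-NPA arrays in columns 3 and 4. Column and toxin therefore cannot be told apart for Mn against control or for 3-NPA against MPP+, and no comparison is free of slide position. Differences are on the log2 scale with the standard error from limma, and a gene passed where the limma adjusted p over all 16908 tested genes was below 0.05 (n = 2 arrays per group). All 9 genes were among the tested genes. Where 1 array is left out below, the lone array of its group is assumed to vary like the other groups.

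Mn arrays held higher Mgp, Srpx2, Ctgf, Cyr61 and Bgn than control arrays: 5 of the 9 genes were called higher and 0 lower, with 6 and 2 at an unadjusted p below 0.05 in limma. Of all tested genes, 7.66% were called in this comparison (4.5% higher and 3.16% lower), and nothing is read from the count, since the genes were chosen with these arrays in view. Without control replicate 1, Mn replicate 1 or any 1 of the MPP+ and 3-NPA arrays the count was 3, without Cyr61 and Bgn, with 3.5% to 6.26% of all tested genes called in those fits. MPP+ was followed by lower Mgp, Cyr61, Timp1, Sparc and Bgn. With Thbs1, which was not well above background in control and for which no direction is read, 6 of 9 genes passed below control and 0 above (6 and 2 at an unadjusted p below 0.05 in limma), against 13.9% of all tested genes called (7.47% higher and 6.47% lower). Without MPP+ replicate 1, 3 of the 9 passed and 3.77% of all tested genes. Without MPP+ replicate 2, 1 passed and 2.69% of all. With 3-NPA, Srpx2, Ctgf and Spp1 passed as higher and Timp1 and Sparc as lower, and Thbs1 passed below control with the same limit, against 38.3% of all tested genes (22.3% higher and 16% lower). Nothing is read from the MPP+ and 3-NPA counts either, since the set was put together with measured values in view.

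Against control, the 9 genes had a median log2 difference of 0.65 with Mn, -0.84 with MPP+ and 0.04 with 3-NPA, where all tested genes had medians of -0.02, 0.02 and 0.05. In Mn, 8 of 9 genes had no overlap with control, against 50.5% of all tested genes. The same held for 9 of 9 genes in MPP+, against 63.5%, and for 8 of 9 in 3-NPA, against 71.9%. Over the 7 genes well above background on both control arrays, all but Srpx2 and Thbs1, the medians were the same, and 6, 7 and 6 had no overlap. These 3 comparisons share the control arrays. Because of how the set was chosen, these medians and overlaps are descriptions, and nothing is read from their distance to all tested genes.

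**Figure D2:**
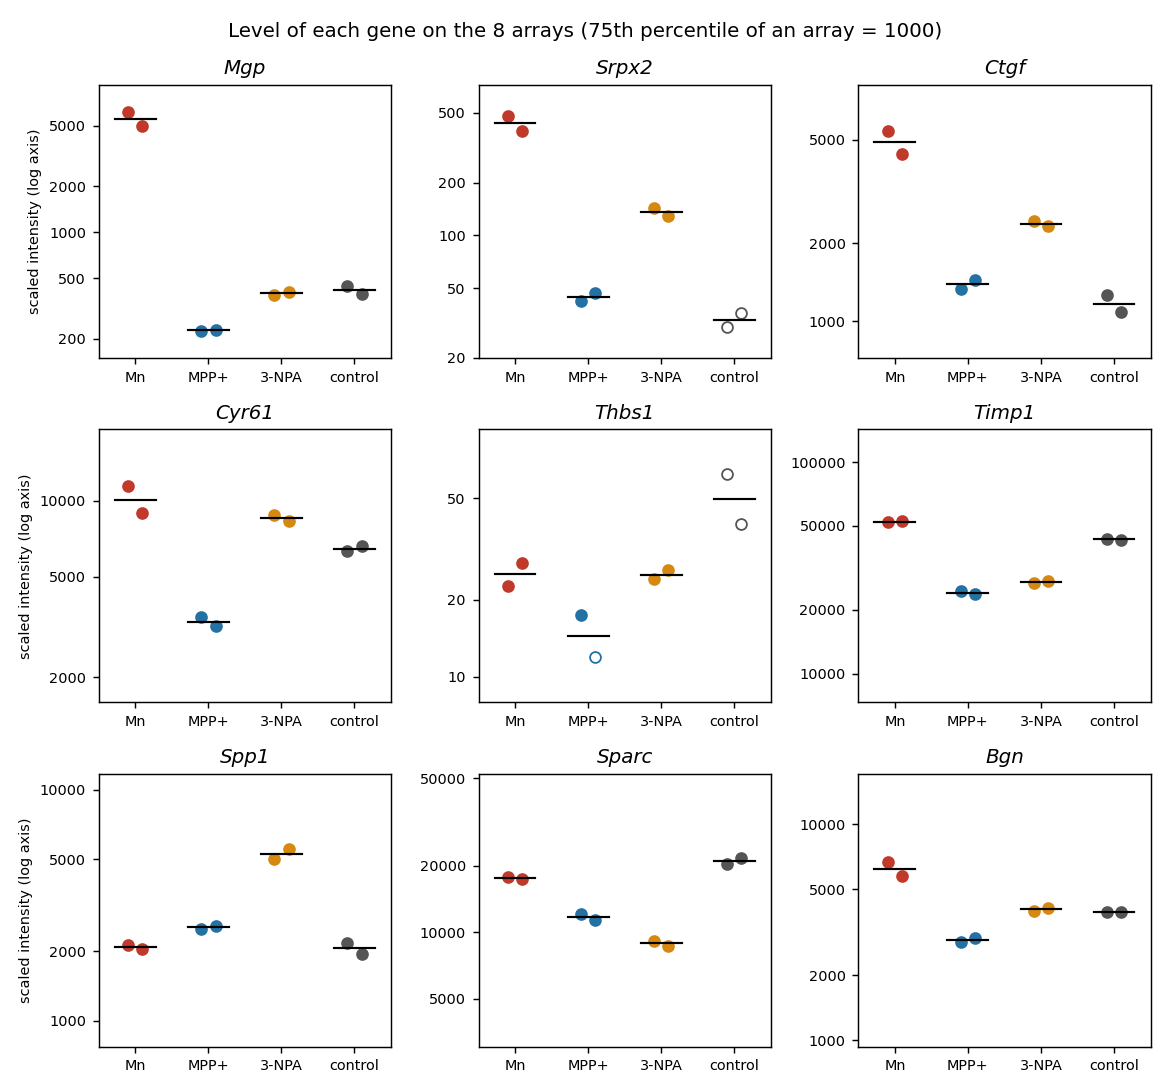
Scaled intensity (log axes, 75th percentile of an array at 1000) of each of the 9 genes on the 2 arrays of each group, with a line at the mean of the log2 values and open points where the probe was not well above background. The Mn arrays stand highest for Mgp (6175 and 5012) and Srpx2 (481 and 395), and the 3-NPA arrays for Spp1 (5011 and 5553).

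Mgp, the calcification inhibitor, was read by the probe below, on rn4 at chr4:173910827-173910886, minus strand, shown because it carries the widest difference of the set. The files give no exon or UTR for the probes.
Mgp probe: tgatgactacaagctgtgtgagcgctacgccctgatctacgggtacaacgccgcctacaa
Its scaled intensity was 6175 and 5012 with Mn, 225 and 229 with MPP+, and 387 and 408 with 3-NPA, against 446 and 393 in control. The Mn arrays stood far above the other 6, the MPP+ arrays lay below them all, and the 3-NPA arrays overlapped the control arrays. The log2 difference of Mn from control was 3.73 ± 0.13, which is 13.3-fold higher. MPP+ was lower than control by a log2 difference of -0.88 ± 0.13, a call (limma adjusted p = 0.0114) that was lost without MPP+ replicate 1 (0.0755) or MPP+ replicate 2 (0.0872). The difference of 3-NPA from control, -0.08 ± 0.13, had a 95% interval of -0.39 to 0.24 and did not pass (limma adjusted p = 0.671). RNA came from whole cultures, in which fewer cells of a type and less RNA per cell cannot be told apart.

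Between toxins, Mgp was 24.5-fold higher in Mn than in MPP+ (log2 difference 4.62 ± 0.13) and 14.0-fold higher in Mn than in 3-NPA (3.81 ± 0.13). 3-NPA was above MPP+ by 0.81 ± 0.13 (limma adjusted p = 0.00674). Mgp levels thus ran, from high to low, Mn, then control and 3-NPA, which did not differ beyond their spread, then MPP+.

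Srpx2 (probe on rn4 at chrX:121468610-121468669, plus strand), the urokinase receptor ligand, was dim in control cells. It read 481 and 395 with Mn, 42.1 and 46.9 with MPP+, and 143 and 130 with 3-NPA, against 29.9 and 35.9 in control. Neither control array was well above background, and no group overlapped another. Because of this the control was taken at the lowest signal well above background on each of its arrays, and Srpx2 was at least 10.6-fold higher in Mn and at least 3.31-fold higher in 3-NPA (fitted log2 difference 2.05 ± 0.15, limma adjusted p = 0.000427). With normexp background correction and an added offset of 50 intensity units in place of the processed signal, these log2 differences were 2.42 and 1.02, below the bounds. 3-NPA still passed (limma adjusted p = 0.000969). Such an offset by itself shrinks the differences of dim probes, and the processed Srpx2 spots read 31.5 to 38.5 units in control. The same offset is part of every normexp value given here, so its effect and that of the background cannot be told apart. MPP+ did not pass (at least 1.08-fold higher, limma adjusted p = 0.105), and normexp gave a log2 difference of -0.03 for it.

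Where both groups were above background the Srpx2 folds needed no bound. Mn was 9.82-fold above MPP+ (log2 difference 3.30 ± 0.15, and 2.45 with normexp) and 3.21-fold above 3-NPA (1.68 ± 0.15). 3-NPA was 3.06-fold above MPP+ (log2 difference 1.62 ± 0.15, limma adjusted p = 0.00109). The order was Mn, 3-NPA, then MPP+, with control no higher than its background limit.

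Ctgf, the connective tissue growth factor of the CCN family, was printed in 10 spots (rn4, chr1:21327574-21327633, minus strand). Scaled intensities were 5413 and 4406 with Mn, 1332 and 1442 with MPP+, and 2430 and 2324 with 3-NPA, against 1259 and 1085 in control. Mn was highest and 3-NPA next, and neither overlapped control. Mn stood 4.18-fold above control (log2 difference 2.06 ± 0.14), and 3-NPA 2.03-fold (1.02 ± 0.14, limma adjusted p = 0.00276). MPP+ did not pass against control (0.25 ± 0.14, 95% interval -0.09 to 0.58, limma adjusted p = 0.273). Mn exceeded MPP+ by 1.82 ± 0.14 (limma adjusted p = 0.00236) and 3-NPA by 1.04 ± 0.14 (limma adjusted p = 0.0035). 3-NPA exceeded MPP+ by 0.78 ± 0.14 (limma adjusted p = 0.00906), a call lost without MPP+ replicate 1 (0.0618) or 3-NPA replicate 1 (0.0622).

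Cyr61, a CCN protein that binds integrins (1 spot, rn4, chr2:243824364-243824423, minus strand), had another order. It read 11448 and 8948 with Mn, 3450.5 and 3201 with MPP+, and 8777 and 8299.7 with 3-NPA, against 6314 and 6609.9 in control. MPP+ arrays were the lowest of all 8, and the other toxin arrays all lay above the control arrays. MPP+ was 1.94-fold below control (log2 difference -0.96 ± 0.14, limma adjusted p = 0.0102), a call lost without MPP+ replicate 1 (0.0565) or MPP+ replicate 2 (0.0878). Mn was above control by 0.65 ± 0.14, and 3-NPA by 0.40 ± 0.14, which did not pass (limma adjusted p = 0.0606). That 3-NPA difference passed in 6 other settings, among them quantile normalization (limma adjusted p = 0.0211) and the fits without Mn replicate 1 (0.0227) or Mn replicate 2 (0.0228). Mn exceeded MPP+ by 1.61 ± 0.14 (limma adjusted p = 0.00315) and 3-NPA exceeded MPP+ by 1.36 ± 0.14 (0.00137), while Mn and 3-NPA differed by 0.25 ± 0.14 (95% interval -0.08 to 0.58, 0.23).

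Thbs1, thrombospondin 1, which activates TGF-beta, was close to background everywhere, and its probe has no position in the files. It read 22.8 and 28.01 with Mn, 17.5 and 11.9 with MPP+, and 24.1 and 26.1 with 3-NPA, against 62.1 and 39.7 in control. The control readings were the highest, yet neither was well above background there, and the 2 spots of control replicate 1 differed 6.26-fold. No fold or direction is given for a toxin against control. The test against these control readings passed for MPP+ (limma adjusted p = 0.0128), but not without MPP+ replicate 2 (0.0854) or with the deposited value table (0.054). It also passed for 3-NPA (limma adjusted p = 0.0335), but not without control replicate 1 (0.117), 3-NPA replicate 1 (0.139) or 3-NPA replicate 2 (0.103), nor with the deposited table (0.0806) or array weights (0.0571). Between toxins no Thbs1 difference passed: Mn against MPP+ gave 0.81 ± 0.27 (limma adjusted p = 0.119), Mn against 3-NPA 0.01 ± 0.27 (95% interval -0.66 to 0.67, 0.989) and 3-NPA against MPP+ 0.80 ± 0.27 (0.071). With normexp the differences of Mn (limma adjusted p = 0.0445) and 3-NPA (0.0391) from MPP+ passed, the second also without control replicate 1 (0.0442) or control replicate 2 (0.0451).

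Timp1, an inhibitor of matrix metalloproteinases, was printed in 10 spots, none of them saturated. Its probe covers rn4 chrX:12542700-12543703, minus strand, a span wider than the probe itself. Timp1 read 51851 and 52635 with Mn, 24458 and 23797 with MPP+, and 26769 and 27470.0 with 3-NPA, against 43486 and 42796 in control. Mn arrays stood a little above control, while MPP+ and 3-NPA arrays stood well below it, and no toxin overlapped control. MPP+ was 1.79-fold below control (log2 difference -0.84 ± 0.08, limma adjusted p = 0.00321) and 3-NPA 1.59-fold (-0.67 ± 0.08, limma adjusted p = 0.00186). The difference of Mn from control was 0.28 ± 0.08. Mn exceeded MPP+ by 1.11 ± 0.08 (limma adjusted p = 0.00213) and 3-NPA by 0.95 ± 0.08 (0.000872), while 3-NPA and MPP+ differed by 0.17 ± 0.08 (95% interval -0.03 to 0.36, 0.158), which passed with quantile normalization (0.0343).

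Spp1, osteopontin, a phosphoprotein that binds integrins and CD44, and Sparc, osteonectin, a collagen-binding protein that counters adhesion, moved apart after 3-NPA, and their probes are shown for that contrast. The Spp1 probe has no position in the files, and the Sparc probe lies on rn4 at chr10:40811473-40811532, minus strand.
Spp1 probe: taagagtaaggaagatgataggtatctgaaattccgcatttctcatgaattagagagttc
Sparc probe: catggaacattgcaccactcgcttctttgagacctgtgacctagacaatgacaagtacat
Spp1 (10 spots) read 2127 and 2038 with Mn, 2486 and 2583 with MPP+, and 5011 and 5553 with 3-NPA, against 2171 and 1949.6 in control. The 3-NPA arrays were above all others, and the Mn arrays lay between the control arrays. Spp1 was 2.56-fold higher in 3-NPA than in control (log2 difference 1.36 ± 0.10, limma adjusted p = 0.000479), 2.08-fold higher than in MPP+ (1.06 ± 0.10, 0.00123), and Mn was below 3-NPA by a log2 difference of -1.34 ± 0.10 (0.000659). Against control, MPP+ gave 0.30 ± 0.10 (limma adjusted p = 0.105) and Mn 0.02 ± 0.10. Mn against MPP+ gave -0.28 ± 0.10 (limma adjusted p = 0.135). Macrophages make Spp1, and 4 of the 6 tested markers of microglia and macrophages were also higher in 3-NPA than in control and 0 lower. Of all tested genes, 22.3% were called higher and 16% lower in that comparison, and the counts of the other marker lists are given below. Cd68, one of them, read 208 to 222 in 3-NPA, against 77.2 to 104 in control, while Ptprc and C1qa were well above background on 0 arrays. The summed scaled intensity of the 8 markers was 767 to 792 in 3-NPA, against 449 to 581 in control, and their part in the Spp1 level was not tested.

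Sparc read 17732 and 17433 with Mn, 12154 and 11369.8 with MPP+, and 9139 and 8708 with 3-NPA, against 20368 and 21777 in control. The 4 groups did not overlap, with 3-NPA the lowest. Sparc was 2.36-fold lower in 3-NPA than in control (log2 difference -1.24 ± 0.09, limma adjusted p = 0.000427) and 1.79-fold lower in MPP+ (-0.84 ± 0.09, 0.00422), the second call being lost without MPP+ replicate 2 (0.0511). Mn differed from control by -0.26 ± 0.09. Sparc was higher in Mn than in 3-NPA (0.98 ± 0.09, limma adjusted p = 0.00111) and in MPP+ (0.58 ± 0.09, 0.0177), and lower in 3-NPA than in MPP+ (-0.40 ± 0.09, 0.0202). The last 2 calls were not stable: the second was lost without any 1 of the 4 arrays of its groups (0.0849 to 0.13), and the Mn against MPP+ call without Mn replicate 1 or any 1 of the MPP+ and 3-NPA arrays (0.053 to 0.138). Without a filter on dim probes neither passed (0.0577 for 3-NPA and 0.0585 for Mn).

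Bgn, biglycan, a small leucine-rich proteoglycan and ligand of Toll-like receptors, had 2 probes, and the brighter (rn4, chrX:159393349-159393408, plus strand) stood for the gene. It read 6695 and 5763 with Mn, 2857 and 2981 with MPP+, and 3968 and 4118 on the 3-NPA arrays, against 3921 on both control arrays. Mn arrays were above and MPP+ arrays below the rest, and 3-NPA lay just above control. Mn was 1.58-fold above control (log2 difference 0.66 ± 0.10), 2.13-fold above MPP+ (1.09 ± 0.10, limma adjusted p = 0.00436) and 1.54-fold above 3-NPA (0.62 ± 0.10, 0.00771), the last lost without 3-NPA replicate 1 (0.0586) and with the mean over probes (0.553). MPP+ was below control by a log2 difference of -0.43 ± 0.10 (limma adjusted p = 0.0445), a call lost without any 1 of the control, MPP+ or 3-NPA arrays (0.0911 to 0.211) with the mean over probes (0.276) and in 4 further settings (0.0693 to 0.156). 3-NPA against control gave 0.04 ± 0.10 (95% interval -0.20 to 0.29, limma adjusted p = 0.757). 3-NPA was above MPP+ by 0.47 ± 0.10 (limma adjusted p = 0.0182), also lost without any 1 of the 4 arrays (0.0833 to 0.107) and with scaling by the median (0.233).

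The dimmer Bgn probe (rn4, chrX:159392152-159392211, plus strand) read 80.0 and 148 with Mn, 62.8 and 68.4 with MPP+, and 113 and 168 with 3-NPA, against 71.6 and 71.8 in control. Its 2 spots differed 2.00-fold on Mn replicate 2 and 1.81-fold on 3-NPA replicate 2. It placed 3-NPA, not Mn, highest on average. 3-NPA against MPP+ passed (1.07 ± 0.31, limma adjusted p over probes = 0.0482), while 3-NPA against control (0.94 ± 0.31, 0.0602) and MPP+ against control (-0.13 ± 0.31, 0.815) did not. Neither Mn against MPP+ (0.73 ± 0.31, limma adjusted p over probes = 0.198) nor Mn against 3-NPA (-0.34 ± 0.31, 0.477) passed. The last had the opposite sign to that of the brighter probe. Mn against control gave 0.60 ± 0.31.

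**Figure D3:**
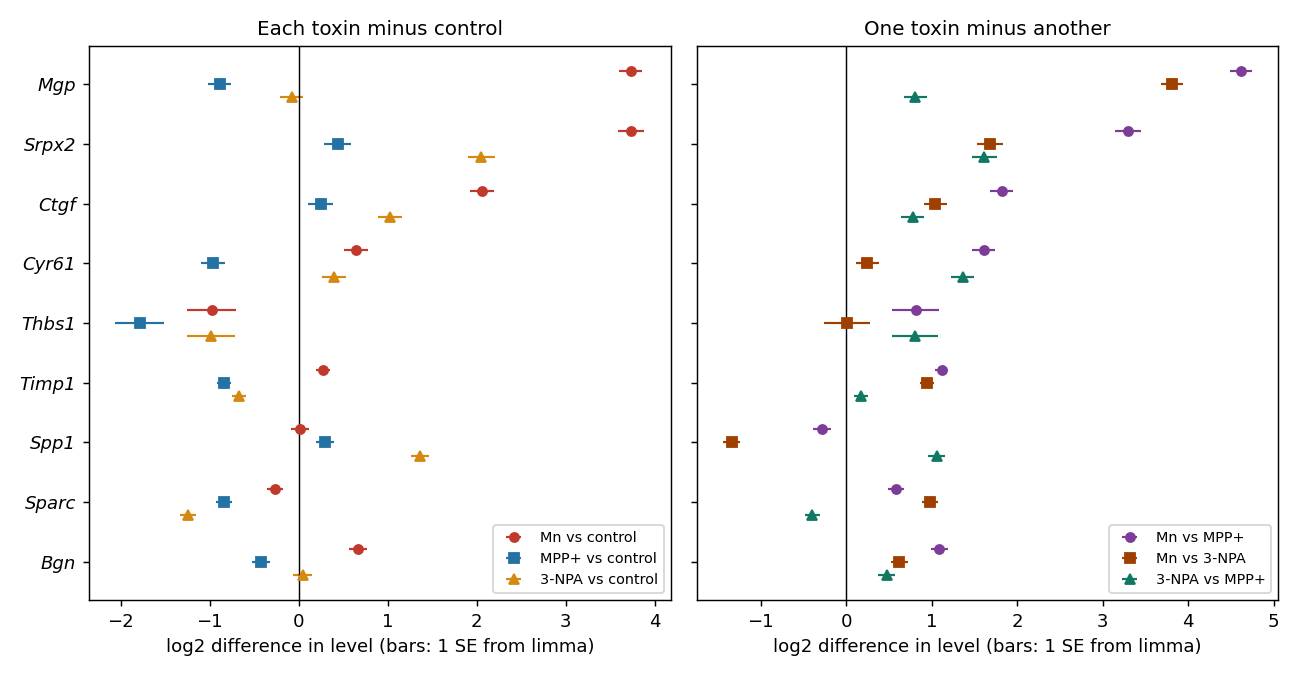
Log2 difference in level for each of the 9 genes, toxin minus control (left) and between toxins (right), with bars of 1 standard error from limma. Mn lies furthest right for Mgp and Srpx2 (3.73 each), 3-NPA for Spp1 (1.36), and the Srpx2 and Thbs1 points against control rest on control readings that were not well above background, so no direction is read for Thbs1.

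Between toxins, 7 of 9 genes were called higher and 0 lower in Mn than in MPP+, with 8 and 1 at an unadjusted p below 0.05 in limma. The background was 9.1% of all tested genes (4.88% higher and 4.22% lower). In Mn against 3-NPA, 6 were higher and 1, Spp1, was lower, with 28.6% of all tested genes called (11.7% higher and 16.9% lower). Both counts include Mgp and Srpx2, which were chosen on the Mn arrays. The set was put together with measured values in view, so nothing is read from the counts, medians or overlaps between toxins. In 3-NPA against MPP+, 6 were higher and 1, Sparc, was lower, with 31% of all tested genes called (18.1% higher and 12.9% lower), and 4 genes passed without MPP+ replicate 1 (14.6% of all) or without 3-NPA replicate 1 (14% of all). The median log2 differences of the 9 genes were 1.11, 0.95 and 0.80 in these comparisons, against -0.03, -0.06 and 0.03 over all tested genes. The arrays of Mn and MPP+ were apart for 9 of the 9 genes (61.9% of all tested genes), those of Mn and 3-NPA for 8 (66.4%) and those of 3-NPA and MPP+ for 9 (76.6%).

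Across the 8 arrays, the log2 levels of Srpx2 and Ctgf had a Pearson correlation of 0.991, those of Mgp and Bgn 0.950, and those of Spp1 and Sparc -0.890. These are descriptions over 8 arrays in 4 groups. By the same measure, the 5 tested genes with a symbol most like Mgp were Loxl2 (0.988), Vcam1 (0.980), Bhlhe40 (0.978), Htra1 (0.976) and Tapbp (0.976). Vcam1, an adhesion molecule for leukocytes, had log2 differences from control of 2.28 in Mn, -0.65 in MPP+ and -0.46 in 3-NPA. Htra1, a secreted serine protease, had 1.39, -0.75 and -0.05 in the same order. Those most like Srpx2 were Acta2 (0.997), Arl4c-ps1 (0.996), Ctgf (0.991), Dusp6 (0.988) and Ifi27 (0.987). Dusp6, a phosphatase of the kinase ERK, had log2 differences from control of 2.11 in Mn, 0.36 in MPP+ and 0.96 in 3-NPA, and Acta2, smooth muscle actin, 1.04, 0.09 and 0.52.

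Related genes were taken from 7 lists with 141 genes, and up to 4 tested genes a list are named, those with the smallest p over the 3 comparisons with control. Called against control were 7.66% of all tested genes in Mn (4.5% higher and 3.16% lower) and 13.9% in MPP+ (7.47% and 6.47%). In 3-NPA the share was 38.3% (22.3% and 16%). The counts of all 7 lists stand beside these shares, which also differ when 1 array is left out, and nothing is read from the counts. Of 39 other matricellular and matrix glycoproteins, 21 were tested. In Mn 5 passed as higher and 3 as lower, in MPP+ 0 and 6 (3 and 8 at an unadjusted p below 0.05 in limma), and in 3-NPA 9 and 5, with median log2 differences of 0.14, -0.28 and 0.10. Leaving out 1 array gave 2 to 5 higher and 1 to 2 lower in Mn, 1 to 6 lower in MPP+ (1 without MPP+ replicate 1 and 1 without MPP+ replicate 2) and 6 to 9 higher and 2 to 6 lower in 3-NPA. Mepe, a phosphoglycoprotein of bone matrix, was higher in Mn (1.62 ± 0.13, limma adjusted p = 0.00271) and 3-NPA (2.30 ± 0.13, 0.000188) and lower in MPP+ (-0.81 ± 0.13, 0.0136), and normexp reduced its differences to 0.75 in Mn and 1.29 in 3-NPA. It was not well above background on control replicate 2 (46.8), so its differences from control depend on the background there. Tnn, a tenascin, was lower in all 3 toxins (-0.94, -1.46 and -0.43 in Mn, MPP+ and 3-NPA). Wisp2, a CCN protein, was lower in MPP+ (-0.76 ± 0.09, limma adjusted p = 0.0063) and higher in 3-NPA (0.87 ± 0.09, 0.00132), with 0.23 ± 0.09 in Mn (0.183). The MPP+ calls of Mepe (limma adjusted p = 0.0656 and 0.111) and Wisp2 (0.058 and 0.0558) were lost without MPP+ replicate 1 or 2, and the 3-NPA call of Tnn without control replicate 2 or either 3-NPA array (0.0669 to 0.125). Fbln2, a fibulin, was not well above background on either control array and was at least 1.09-fold higher in Mn (limma adjusted p = 0.0116, 0.0726 with normexp), with no fold given for the other toxins, though it counts among the 9 called in 3-NPA.

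Of 11 small leucine-rich proteoglycans, the family of Bgn, 3 were tested, and 1, Fmod (fibromodulin), passed as higher in each toxin. It read 1699 and 1556 with Mn, 1460 and 1519 with MPP+, and 2850 and 2732 with 3-NPA, against 944 and 940.5 in control. Its log2 differences were 0.79 ± 0.09, 0.66 ± 0.09 and 1.57 ± 0.09 (limma adjusted p = 0.00772, 0.00879 and 0.000202), and the MPP+ call was lost without MPP+ replicate 1 (0.0599) or MPP+ replicate 2 (0.0876). Chad and Prelp were the others tested and did not pass in any toxin, and neither was well above background in control.

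Protease inhibitors and genes of mineralisation and vitamin K modification, the setting in which Mgp works, had 12 of 16 genes tested. In Mn 2 passed as higher and 0 as lower (2 and 1 at an unadjusted p below 0.05 in limma), in MPP+ 3 and 1, and in 3-NPA 5 and 0 (7 and 2 unadjusted), with medians of 0.00, 0.05 and 0.35. Without MPP+ replicate 1, or without MPP+ replicate 2, 0 were higher in MPP+, and leaving out 1 array gave 1 to 2 higher in Mn and 3 to 5 in 3-NPA. Enpp1, which makes the mineralisation inhibitor pyrophosphate, was higher in Mn (0.49 ± 0.10, limma adjusted p = 0.0408), MPP+ (0.54 ± 0.10, 0.0224) and 3-NPA (2.12 ± 0.10, 0.000127). The Mn call was lost without any 1 array other than control replicate 2 (limma adjusted p of 0.0522 to 0.115), and the MPP+ call without control replicate 1 or any 1 of the MPP+ and 3-NPA arrays (0.0571 to 0.142). Pthlh, parathyroid hormone-related protein, was not well above background on the control arrays and was at least 1.31-fold higher in Mn (limma adjusted p = 0.00293) and at least 2.30-fold higher in 3-NPA (0.00018), with log2 differences of 0.46 and 0.91 by normexp, the second below its bound. It also counts among the 3 called in MPP+ (limma adjusted p = 0.0186), where no fold is given, normexp gave -0.0069 and the call was lost without any 1 of the control and MPP+ arrays (0.0526 to 0.133). Gas6, a vitamin K-dependent ligand of the receptor Axl, was higher in MPP+ (0.50 ± 0.11, limma adjusted p = 0.0343) and 3-NPA (0.91 ± 0.11, 0.00194), the MPP+ call being lost without any 1 array other than control replicate 1 (0.05 to 0.196). Bmp4, one of the bone morphogenetic proteins, was lower in MPP+ (-0.62 ± 0.09, limma adjusted p = 0.0117), a call lost without MPP+ replicate 2 (0.102).

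Receptors of the 9 proteins had 13 of 18 genes tested. In Mn 0 passed in either direction (6 higher and 1 lower at an unadjusted p below 0.05 in limma), in MPP+ 0 as higher and 2 as lower (3 and 3 unadjusted), and in 3-NPA 4 and 3, with medians of 0.21, 0.13 and 0.22. Without MPP+ replicate 1, or without MPP+ replicate 2, 0 were lower in MPP+, and leaving out 1 array gave 2 to 5 higher and 1 to 3 lower in 3-NPA. The Toll-like receptors named for Bgn went opposite ways in 3-NPA: Tlr4 was higher (1.94 ± 0.16, limma adjusted p = 0.000577) and Tlr2 lower (-1.42 ± 0.13, 0.000744). Itga6, an integrin chain that takes part in binding Cyr61, was higher in 3-NPA (1.099 ± 0.19, limma adjusted p = 0.00718), though it was not well above background on control replicate 1 (54.0). Itga9, an integrin chain for osteopontin, was well above background on the 3-NPA arrays (42.3 and 33.8) and on both arrays of no other group, and no fold is given for it, though it counts among the 2 called lower in MPP+.

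Of 22 other YAP and TEAD targets, 16 were tested. In Mn 0 passed as higher and 2 as lower (2 and 4 at an unadjusted p below 0.05 in limma), in MPP+ 1 and 2, and in 3-NPA 3 and 5, with medians of -0.12, -0.12 and -0.02. Leaving out any 1 array left 0 called in Mn and 0 to 1 lower in MPP+, with 1 to 3 higher and 3 to 5 lower in 3-NPA. F3, tissue factor, was higher in MPP+ (0.90 ± 0.08, limma adjusted p = 0.00295) and 3-NPA (1.27 ± 0.08, 0.000307). Ccdc80, Axl and Ankrd1 were lower in 3-NPA (-0.98, -0.95 and -0.91), where Ctgf was higher, and the call of Axl was lost with the mean over probes (limma adjusted p = 0.0543). Ankrd1, which like Ctgf is a standard readout of YAP, read 145 and 147 with Mn, 154 and 146 with MPP+, and 112 and 87.4 with 3-NPA, against 189 and 183 in control.

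Targets of SRF and its MRTF coactivators, which also act on Ctgf and Cyr61, had 15 of 19 genes tested. In Mn 1 passed as higher and 0 as lower (4 and 0 at an unadjusted p below 0.05 in limma), in MPP+ 1 and 1, and in 3-NPA 2 and 3, with medians of 0.14, -0.02 and 0.09. Leaving out 1 array gave 1 to 2 higher in Mn, 0 to 1 higher and 0 to 3 lower in MPP+, and 1 to 3 higher and 0 to 4 lower in 3-NPA. Acta2 was higher in Mn (1.04 ± 0.09, limma adjusted p = 0.00313) and 3-NPA (0.52 ± 0.09, 0.00649). Myl9, a myosin light chain, was lower in MPP+ (-0.53 ± 0.10, limma adjusted p = 0.0233) and higher in 3-NPA (0.64 ± 0.10, 0.00464), Fhl2 was higher in MPP+ (1.16 ± 0.23, 0.0267), and Tagln, transgelin, was lower in 3-NPA (-0.91 ± 0.20, 0.0163). Fhl2 was not well above background on control replicate 2 (57.5). The 3-NPA calls of Acta2 and Tagln were lost without single arrays (limma adjusted p = 0.051 for Acta2 without 3-NPA replicate 1, and 0.0677 and 0.0773 for Tagln without control replicate 1 or 3-NPA replicate 2). The MPP+ calls of Myl9 (0.0526 to 0.14) and Fhl2 (0.0598 to 0.161) were lost without any 1 of the MPP+ and 3-NPA arrays, and that of Myl9 also without control replicate 1.

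Ligands, receptors and targets of TGF-beta, the factor that thrombospondin 1 activates, had 14 of 16 genes tested. In Mn 3 passed as higher and 2 as lower, in MPP+ 0 and 1 (4 and 2 at an unadjusted p below 0.05 in limma), and in 3-NPA 5 and 4, with medians of 0.13 to 0.14. Leaving out 1 array gave 2 to 4 higher and 1 to 2 lower in Mn, 0 to 1 lower in MPP+, and 2 to 5 higher and 1 to 4 lower in 3-NPA. Pmepa1, a target that dampens TGF-beta signalling, was higher in Mn (1.28 ± 0.17, limma adjusted p = 0.0113) and 3-NPA (0.82 ± 0.17, 0.0115). Tgfb3, a ligand, was lower in Mn (-1.18 ± 0.15, limma adjusted p = 0.0114) and 3-NPA (-0.56 ± 0.15, 0.0317), and the receptor Tgfbr2 was higher in 3-NPA (1.05 ± 0.09, 0.000699; 0.0675 with the mean over probes). The 3-NPA calls of Pmepa1 (limma adjusted p = 0.0718 without 3-NPA replicate 1) and Tgfb3 (0.117 to 0.124 without control replicate 1 or either 3-NPA array) rested on single arrays.

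**Figure D4:**
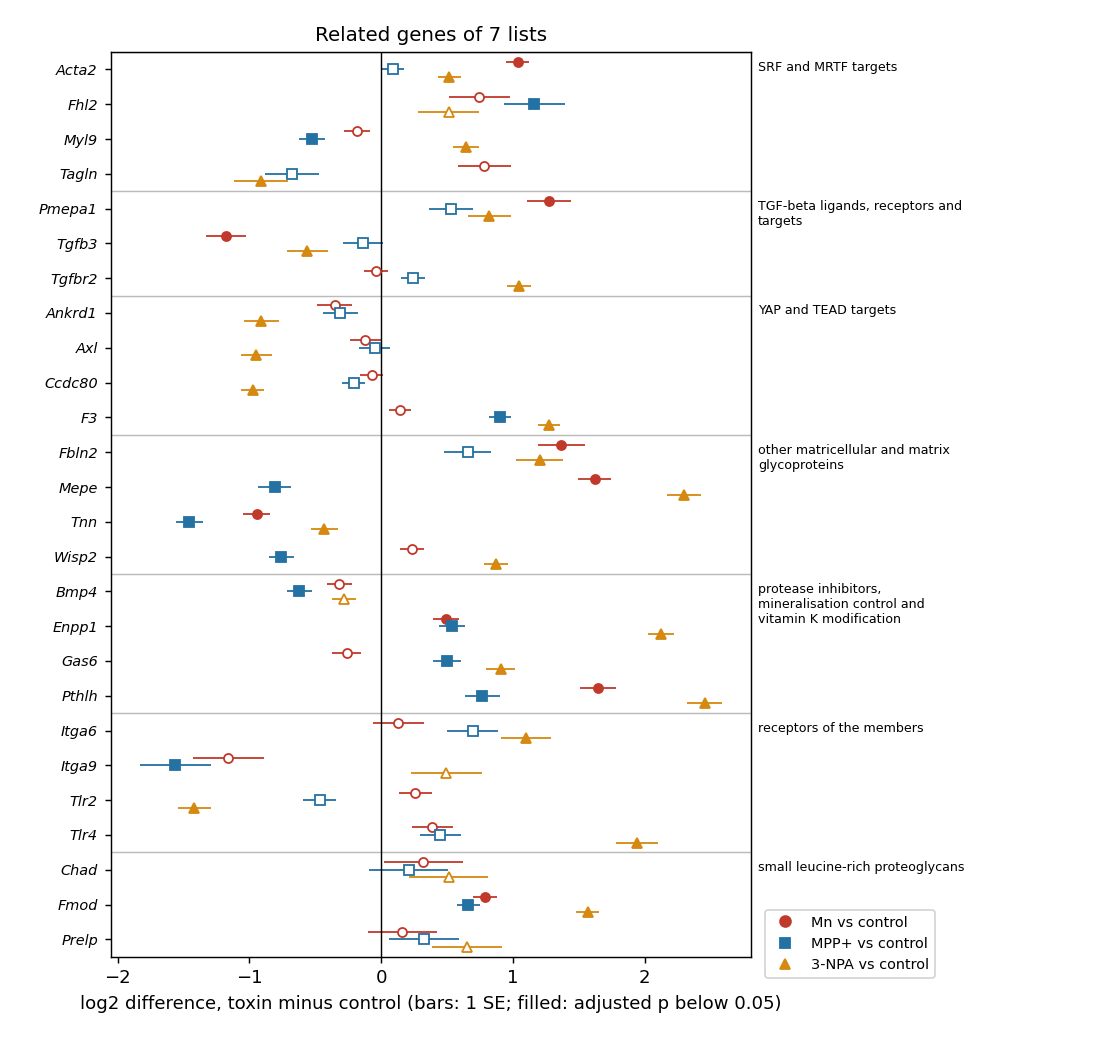
Log2 difference from control in Mn, MPP+ and 3-NPA for the 26 named related genes by list, with bars of 1 standard error from limma and filled points at an adjusted p below 0.05. Mepe is higher in Mn and 3-NPA, while Fbln2, Pthlh, Chad, Prelp and Itga9 were not well above background in control, so their points depend on the background there. Mepe, Fhl2 and Itga6 were well above background on only 1 of the 2 control arrays.

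The cells were checked against cell type markers. Th, the enzyme of dopamine synthesis, Nr4a2 and Slc18a2 were well above background on all 8 arrays, while the dopamine transporter Slc6a3, Drd2 and Foxa2 were so on 0. Of pan-neuronal markers, Map2 and Tubb3 were well above background on all 8 arrays and Snap25, Nefl, Nefm, Stmn2 and Syp on 0. Fibroblasts make Mgp, Bgn and Sparc, and of 8 fibroblast markers Dcn, Lum, Fap and Twist1 were well above background on 0 arrays, Pdgfra on 4, Col1a2 on 6, Col3a1 on 7 and Col1a1 on 8. The 8 summed to 1135 to 1200 in Mn, 366 to 412 in MPP+ and 1458 to 1476 in 3-NPA, against 794 to 880 in control. Col1a1 made up most of that sum, with 1021 to 1092 in Mn, 298 to 330.4 in MPP+ and 1338 to 1349 in 3-NPA, against 622 to 688 in control. Col3a1 differed in order, with 54.4 to 58.7 in Mn, 20.4 to 23.3 in MPP+ and 18.1 to 23.6 in 3-NPA, against 78.0 to 84.9 in control.

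The 8 pericyte and smooth muscle markers, of which Rgs5 was well above background on 0 arrays, summed to 2019 to 2116 in Mn, 1947 to 1963 in MPP+ and 2761 to 2952 in 3-NPA, against 1580 to 1818 in control. Of the 7 cartilage and bone markers on the array, Acan, Alpl and Ibsp were well above background on 0 arrays. The 7 summed to 2626 to 2995 in Mn, 1718 to 1912 in MPP+ and 2359 to 2433 in 3-NPA, against 2252 to 2687 in control. Runx2 made up most of it (2332 to 2742 in Mn), while Col2a1 read 140.0 to 184 in Mn, against 239 to 302 in control. In 3-NPA, 3 of 4 tested endothelial markers, 3 of 6 oligodendrocyte and 3 of 6 pericyte markers passed in limma as higher and 0 of these lists as lower, with 0 endothelial, 1 oligodendrocyte and 1 pericyte marker lower at an unadjusted p below 0.05. Those of fibroblasts passed as 2 higher and 1 lower of 4, and those of astrocytes as 1 and 1 of 4. Those of neural progenitors passed as 1 and 0 of 4, and those of cartilage and bone as 0 and 1 of 4. Those of dopaminergic neurons passed as 2 and 0 of 6 and pan-neuronal ones as 2 and 1 of 3. Of all tested genes, 38.3% were called in 3-NPA against control (22.3% higher and 16% lower), and nothing is read from the marker counts. In Mn, 2 of 4 tested neural progenitor and 2 of 6 pericyte and smooth muscle markers passed as higher, and 2 of 4 astrocyte markers as lower. No more than 1 marker of any other list passed there, where 7.66% of all tested genes were called. The neural progenitor markers summed to 24510 to 27115 in Mn, 16379 to 17125 in MPP+ and 17313 to 18501 in 3-NPA, against 15047 to 15090 in control. In MPP+, 1 astrocyte marker passed as higher and 2 as lower of 4. No more than 2 markers of any other list passed there, where 13.9% of all tested genes were called. The part of these cell types in the levels of the 9 genes was not tested.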

How the data were processed

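Total RNA of N27 cells was labelled with Cy3 and hybridised to 8 Agilent arrays. Spots were read with Agilent Feature Extraction 11.5.1.1, with probes placed on rn4, per the file headers. The deposited processed signal is an intensity after background subtraction and detrending within each array, per the file headers, which record no scaling across arrays. Log2 values make up the deposited table, with medians of -4.38 to -3.99 and 75th percentiles of 0.0101 to 0.0237 per array. It correlated at 0.9966 or more with the log2 signal of the same array, so its scale, centring and direction were taken as those of log2 signal minus about the 75th percentile, while its software is not given in the sources used here.

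Control spots and outlier spots were left out, and 39 of 30367 probes with all spots marked on an array were dropped. The mean log2 signal over the spots of a probe was taken and the 75th percentile of each array, 1026 to 1279 intensity units, set to 0. A probe counted as well above background where more than 0.5 of its spots were marked so. The 19460 probes that were so on both arrays of a group were kept, and the brightest kept probe stood for each of 16908 genes. For a gene dim on both arrays of a group, that group was taken at the higher, per array, of its own signal and the lowest signal well above background, and the fold is written as "at least".

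One limma 3.58.1 fit (R 4.3.3) of the 4 group means over 8 arrays, with 4 residual and 2.06 prior degrees of freedom, gave 6 comparisons with Benjamini-Hochberg adjustment in each, and was tested on simulated data. The smallest exact permutation p for 2 arrays against 2 is 0.333, so none was used. Promoters were searched with Python 3.11.15. The 9 genes, the 7 lists of related genes and the marker lists were chosen with earlier results of these data known. Named related genes are up to 4 tested genes per list with the smallest p over the comparisons with control, and the 5 genes most correlated with Mgp and with Srpx2, with 1 gene that the rule takes not reported here. Alternatives covered background correction (normexp with an offset of 50), scaling, the deposited table, filters, probe choice, variance model, weights, the arrays in the fit, a replicate block and leaving out each array. Gene symbols are those of the array files, and list names that differed from them were matched through RefSeq synonyms or accessions.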

Additional observations from a re-analysis of the deposited data

How the results depend on the processing

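With 2 arrays per group, calls near the threshold depended on single arrays, and dim genes on the background of the control arrays. Over 13 settings other than leaving out an array, 629 of 662 differences of the 9 genes kept their side of the threshold, 21 lost it, 12 gained it and 0 called differences reversed. Leaving out 1 array kept 383 of 432, with 44 lost and 5 gained. A required log2 difference of at least 1 left 3 of the 9 genes called for Mn against control, 1 for MPP+ against control, 4 for Mn against 3-NPA and 3 for 3-NPA against MPP+. The 1 gene for MPP+ against control was Thbs1, which was not well above background in control and for which no direction is read. For Mn against control, 3 were called with array weights (2.6% of all tested genes) and 3 with the 4 arrays of the pair (1.81%), which share a slide row but differ in slide column. The share of all tested genes called also moved when 1 array was left out, so the counts that follow are not read apart from it. Leaving out each array gave 3 to 5 called genes for Mn against control, 1 to 6 for MPP+ against control, 5 to 7 for 3-NPA against control, 6 to 7 for Mn against MPP+, 6 to 7 for Mn against 3-NPA and 4 to 8 for 3-NPA against MPP+. For Mn against control the count fell to 3 without control replicate 1, Mn replicate 1 or any 1 of the MPP+ and 3-NPA arrays. Deviations of arrays with the same replicate number correlated at 0.50 between Mn and 3-NPA, and at -0.02 to 0.10 between the other groups. The numbers were not taken as pairs in the main fit, although the value for Mn and 3-NPA leaves a shared deviation there. With the replicate block, 4 genes were called for Mn against control (5.9% of all tested genes) and 5 for MPP+ against control (12.1%). The counts of the other comparisons did not move. The 6 arrays of the first extraction run, an alternative chosen after seeing the data, gave 4 for Mn against control, 5 for MPP+ against control and 7 for Mn against MPP+. Of all tested genes, 3.94%, 8.01% and 4.57% were called in these fits. Scaling by the median of each array moved the median log2 difference of all genes to 0.13 for MPP+ against control, -0.09 for 3-NPA against control, 0.16 for Mn against 3-NPA and -0.23 for 3-NPA against MPP+. Without a filter on dim probes 26183 genes were tested, their median difference from control was -0.21 in Mn, -0.22 in MPP+ and -0.27 in 3-NPA, and 7047, 8834 and 11924 were called, against 1295, 2357 and 6474 with the filter. Pthlh, not well above background in control, reversed for MPP+ against control with normexp (log2 difference -0.0069, limma adjusted p = 0.967). The causes were not tested.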
